A study of Homo sapiens with 16 samples.

Results

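Expression of 10 WNT feedback and target genes was examined in SNU719 and YCC10, human gastric cancer cell lines that carry Epstein-Barr virus, after MYB or TCF7 had been lowered. The genes were taken by name, as known WNT feedback and target genes, with earlier results of these data known; no measured value entered the rule: AXIN2, NKD1, RNF43, ZNRF3, LGR5, NOTUM, DKK1, ASCL2, SP5 and TNFRSF19. They are 10 of the 28167 gene symbols in the expression table, and each stands on its own row. Levels are FPKM, fragments counted per transcript length and sequencing depth, so levels of different genes can be set side by side. Of the 10 genes, 9 passed a filter of a mean of at least 1 FPKM in every fit, and NKD1, at 0.0168 FPKM or less in all 16 libraries, was not tested. DKK1 passed the filter through YCC10 alone, and ASCL2 and NOTUM passed it through SNU719 alone.

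The 16 RNA-seq libraries fell into 3 sets with separate controls (12 groups in all), and the labels call all of the cells wild type. In the MYB set, cells received the siRNA siMYB or the control siCtrl, with 2 libraries per group and line. In the TCF7 set they received siTCF7 or siCtrl, and in the CRISPRi set the guide RNA sgMYB-E3 or the control guide sgCtrl, with 1 library per group and line. The stated aim was to study what MYB and TCF7 do in these cells. sgMYB-E3 was used with CRISPR interference, which silences a site without cutting it, and its name and the study's title point to an enhancer of MYB as the site. The medium was EMEM for YCC10 and RPMI1640 for SNU719, so line and medium cannot be told apart. The labels do not tie the libraries of a group to separate cultures, so p-values measure the spread between these libraries, which may be technical. In fits with 1 effect for both lines, disagreement between the lines also enters that spread. Those p-values thus depend in part on how alike the lines are. How many siRNA sequences were used, and how long after transfection cells were harvested, is not given in the sources used here.

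In the canonical WNT pathway a WNT ligand binds a Frizzled receptor and an LRP co-receptor, the destruction complex that degrades beta-catenin is held back, and beta-catenin enters the nucleus, where it acts with TCF/LEF factors, of which TCF7 is a member. Several of the genes switched on in this way damp the same signal: AXIN2 is a scaffold of the destruction complex, RNF43 and ZNRF3 are membrane ubiquitin ligases that remove Frizzled receptors, NOTUM removes the lipid that WNT ligands need, and DKK1 blocks the LRP co-receptors. LGR5 is a receptor for R-spondins and marks stem cells of the gastric glands and the intestinal crypt. MYB is a transcription factor best known from blood progenitors and also active in the intestinal epithelium.

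Promoter sequences were in the reference table for 4 of the genes (SP5, DKK1, TNFRSF19 and RNF43, with 6 start sites). Each entry ran from 250 bases before to 50 bases after an annotated start site and was searched on both strands for the core that TCF/LEF factors bind at WNT-responsive sites, CTTTGA, which reads TCAAAG on the other strand. SP5 and DKK1 had matches, and the 250 bases before their start sites are shown because both genes were far higher in YCC10 than in SNU719 in the data below. The sequences are from RefSeq on GRCh38.p14, at chr2:170715087-170715336 on the plus strand for SP5 and at chr10:52314031-52314280 on the plus strand for DKK1. They are written 5′ to 3′, and capitals mark each match to the core.
SP5: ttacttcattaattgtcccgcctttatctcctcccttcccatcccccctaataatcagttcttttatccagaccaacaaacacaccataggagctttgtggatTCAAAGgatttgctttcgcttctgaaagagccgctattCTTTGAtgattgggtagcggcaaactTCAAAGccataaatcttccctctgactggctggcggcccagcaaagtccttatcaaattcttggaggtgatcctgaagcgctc
DKK1: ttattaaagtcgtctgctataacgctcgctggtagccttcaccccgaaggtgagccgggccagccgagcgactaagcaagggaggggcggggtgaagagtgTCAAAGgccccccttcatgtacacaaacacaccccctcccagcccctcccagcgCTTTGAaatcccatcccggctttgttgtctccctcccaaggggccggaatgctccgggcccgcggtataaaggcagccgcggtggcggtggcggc

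The first bases of the 3 matches in SP5 lay at -147, -109 and -83 relative to the start site. The 2 matches in DKK1 lay at -149 and -95. The core occurred in 12.9% of all 35116 promoters of the table, so a match is common, and it is given as a description of the sequence and not as a bound site. The longer form CTTTGAA, which contains the core, occurred in 4.43% of promoters and in both genes, and CTTTGAT, which also contains it, in 2.62% and in SP5. The start sites of TNFRSF19 and RNF43 had no match to the core in this window, and TNFRSF19 was also several-fold higher in YCC10. A link between matches and levels was not tested. The MYB core AACNG, which is a short motif, occurred in 77.2% of all promoters and at 5 of the 6 start sites (RNF43, SP5 and TNFRSF19).

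Depth is not recorded in FPKM; a relative depth read from the lowest values spanned 0.603 to 1.31, with a YCC10 control of the MYB set (siCtrl 1) taken as 1. The 4 MYB-set libraries numbered 1 stood apart in short RNAs, with 73.0% to 79.1% of 215 short RNA genes listed at 0 against 41.9% to 60.5% in the other 12 libraries; values for numbers 1 and 2 are therefore given separately below. As a check of the labels, mean MYB fell with siMYB to 20.2% of control in SNU719 and 5.95% in YCC10. With siTCF7, TCF7 stood at 29.7% and 18.3% of control, and MYB itself stood at 56.0% and 21.1%. With sgMYB-E3, MYB stood at 38.5% and 58.4% of control. The epithelial markers EPCAM, CDH1, KRT8, KRT18, KRT19 and CLDN4 were high in both lines (89.7 FPKM or more), whereas the gastric markers were mixed. GKN1 was listed at 0 throughout and MUC5AC reached 0.00481 FPKM at most. TFF1 ranged from 10.5 to 40.7 FPKM and TFF2 from 5.23 to 23.8 FPKM in YCC10, against at most 1.52 and 0.889 FPKM in SNU719. None of 7 lymphocyte and 9 stromal and endothelial markers reached 1 FPKM in any library, with CD3D, CD2 and COL1A2 listed at 0 in all 16. In bulk RNA, fewer cells expressing a gene and less RNA of it per cell cannot be told apart.

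The control libraries showed that the lines differ in which WNT feedback genes they express. YCC10 expressed DKK1 as its most abundant gene of the group and SNU719 listed it at 0, whereas ASCL2 and NOTUM were expressed in SNU719 and listed at 0 in every YCC10 library. SP5 and TNFRSF19 were several-fold higher in YCC10, AXIN2 and LGR5 were higher by less, and RNF43 and ZNRF3 were higher in SNU719. DKK1, ASCL2 and NOTUM passed the filter through 1 line and so had to differ. Each of the other 6 tested genes also differed between the lines (4 higher and 2 lower in YCC10; limma with Benjamini-Hochberg adjustment), in a comparison where 64% of 12187 genes were called, 30.4% higher and 33.6% lower, so this count says little about these genes in particular. These control libraries are also the controls of the knockdown comparisons below.

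Per gene, the secreted inhibitor DKK1 (chromosome 10, 52314296 to 52318042, plus strand) stood at 146, 208, 211 and 214 FPKM in the YCC10 controls and was listed at 0 in all 4 SNU719 controls. NOTUM (chromosome 17, 81952507 to 81961840, minus strand), a secreted enzyme, stood at 3.26, 7.26, 7.79 and 9.16 FPKM in the SNU719 controls. ASCL2 (chromosome 11, 2268495 to 2270952, minus strand), a basic helix-loop-helix factor of intestinal stem cells, stood at 4.29, 9.60, 11.7 and 12.3 FPKM there. These 3 genes thus separated the lines completely, with every library of the other line at or next to 0; the highest value of DKK1 in any SNU719 library was 0.0279 FPKM. No fold is given against a line listed at 0.

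SP5 (chromosome 2, 170715351 to 170718078, plus strand), a zinc finger factor that represses transcription, stood at 6.26, 11.8, 12.6 and 17.4 FPKM in the YCC10 controls and at 0.255, 1.03, 1.14 and 1.85 FPKM in the SNU719 controls. The log2 difference, here and below on the scale log2(FPKM + 1), which understates changes of weakly expressed genes, was 2.64 (SE 0.0584, adjusted p = 5.61e-07, limma). TNFRSF19 (chromosome 13, 23570370 to 23676104, plus strand), a receptor of the TNF receptor family also called TROY, ranged from 12.0 to 14.4 FPKM across the YCC10 controls and 2.22 to 2.47 FPKM across those of SNU719 (log2 difference 2.11, SE 0.0615, adjusted p = 1.60e-06, limma). For both genes the lowest YCC10 control lay well above the highest SNU719 control.

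AXIN2 (chromosome 17, 65528563 to 65561647, minus strand) ranged from 90.6 to 117 FPKM in the YCC10 controls and from 37.6 to 47.3 FPKM in the SNU719 controls (log2 difference 1.20, SE 0.0924, adjusted p = 8.04e-05, limma). LGR5 (chromosome 12, 71439770 to 71586310, plus strand) ranged from 14.0 to 21.3 FPKM in YCC10 and from 8.83 to 14.4 FPKM in SNU719 (0.61, SE 0.144, adjusted p = 0.0104, limma). AXIN2 did not overlap between the lines, whereas the highest LGR5 value of SNU719, in its sgCtrl library, was above the lowest of YCC10.

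RNF43 (chromosome 17, 58352500 to 58417595, minus strand) ranged from 47.7 to 54.5 FPKM across the SNU719 controls and 31.1 to 40.2 FPKM across those of YCC10 (-0.55, SE 0.0685, adjusted p = 6.60e-04, limma). ZNRF3 (chromosome 22, 28883592 to 29057487, plus strand) stood at 12.9, 13.4, 13.6 and 14.9 FPKM in SNU719 and at 8.52, 8.99, 9.02 and 16.2 FPKM in YCC10 (-0.37, SE 0.123, adjusted p = 0.0359, limma). RNF43 did not overlap, but the YCC10 sgCtrl library held more ZNRF3 than any SNU719 control. The ZNRF3 difference was lost with the replicate number as a block (adjusted p = 0.0553), with no filter on low values (adjusted p = 0.0616), without the MYB-set libraries numbered 1 (-0.30, adjusted p = 0.174) and without any 1 of the 6 siCtrl libraries (-0.32 to -0.35, adjusted p = 0.0892 to 0.117). Over its 15 alternatives the adjusted p ran from 8.69e-04 to 0.174.

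Ordered by median FPKM in controls, SNU719 read RNF43 (53.3), AXIN2 (44.7), ZNRF3 (13.5), ASCL2 (10.7), LGR5 (10.6), NOTUM (7.53), TNFRSF19 (2.29) and SP5 (1.08). YCC10 read DKK1 (209), AXIN2 (99.1), RNF43 (35.1), LGR5 (17.3), TNFRSF19 (13.6), SP5 (12.2) and ZNRF3 (9.01). In SNU719 the ranges of ASCL2, LGR5 and NOTUM overlapped, as did those of ZNRF3 and LGR5, and in YCC10 those of LGR5, TNFRSF19, SP5 and ZNRF3 overlapped, so the order within these groups is not settled by the libraries. NKD1 (chromosome 16, 50548330 to 50649249, plus strand), an inhibitor of Dishevelled that is often induced with AXIN2, had a median of 0.00493 FPKM in SNU719 and 0.00792 FPKM in YCC10.

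**Figure D1:**
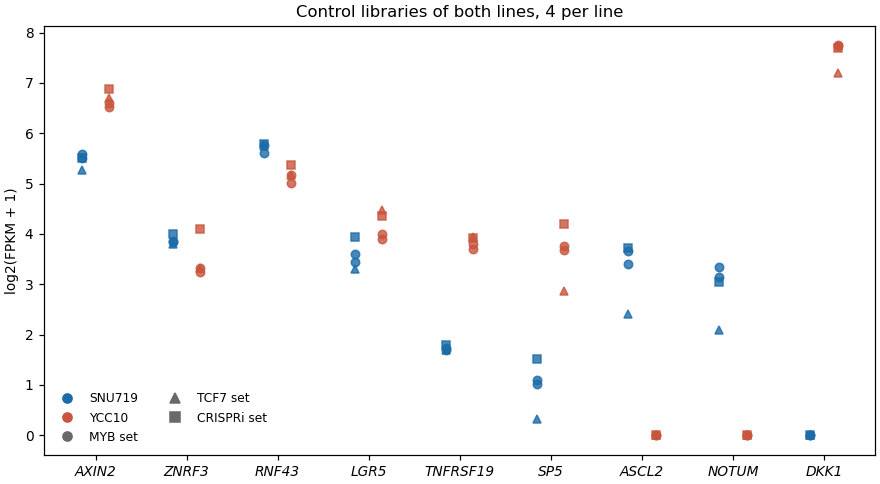
Control libraries of SNU719 (blue) and YCC10 (red), 4 per line, with the gene on the x axis and log2(FPKM + 1) on the y axis; the symbol gives the set. DKK1 is seen in YCC10 alone, ASCL2 and NOTUM in SNU719 alone, and the TCF7-set libraries (triangles) lie lowest for SP5 in both lines, for ASCL2 and NOTUM in SNU719 and for DKK1 in YCC10.

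With siMYB, AXIN2, ZNRF3 and TNFRSF19 rose in both lines. LGR5 went opposite ways, falling in SNU719 and rising in YCC10. In YCC10, SP5 also rose and RNF43 and DKK1 fell, DKK1 to 40.4% of its control level. In SNU719, 3 of the 9 tested genes rose and 1 fell; of all 12095 genes tested there, 22.6% were called, 8.04% higher and 14.6% lower. In YCC10, 5 rose and 2 fell, beside 41.8% of genes called, 15.3% higher and 26.5% lower. The median log2 change of the 9 genes was 0.10 in SNU719 and 0.28 in YCC10, beside -0.062 and -0.068 over all genes tested. DKK1 in SNU719 and ASCL2 and NOTUM in YCC10 are listed at 0 and enter these counts and medians as unchanged. Those zeros also add nothing to the spread, which the lines share in this fit. SEs and p-values of these genes in the line that expresses them can therefore be too small. Higher genes made up 35.5% of the genes called in SNU719 and 36.6% in YCC10, and this split depended on scaling: it was 51.1% and 53.5% after median-of-ratios scaling, and 47.1% and 50.3% after quantile normalization.

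In a fit with 1 siMYB effect for both lines, 3 of the 9 genes rose and 0 fell: AXIN2 by 0.52 (SE 0.0548, adjusted p = 0.00193), ZNRF3 by 0.42 (SE 0.0801, adjusted p = 0.0112) and TNFRSF19 by 0.30 (SE 0.0563, adjusted p = 0.0101; limma). Of all genes 29.4% were called, 8.76% higher and 20.7% lower; higher genes were 29.8% of those called, 51.5% after median-of-ratios scaling and 46.4% after quantile normalization. SP5 (0.34, SE 0.110, adjusted p = 0.0570) did not pass, with an adjusted p of 0.0359 to 0.486 over its 16 alternatives, both scalings among the 3 that passed. The others were DKK1 (-0.65, adjusted p = 0.0939), RNF43 (-0.27, adjusted p = 0.160), LGR5 (0.19, adjusted p = 0.542), ASCL2 (0.13, adjusted p = 0.281) and NOTUM (-0.12, adjusted p = 0.344; limma), of which the first and the last 2 average a line listed at 0. Without the MYB-set libraries numbered 1, an alternative added after the data had been seen, 0 of the 9 and 8 of all genes passed, and the changes were 0.52 for AXIN2, 0.40 for ZNRF3 and 0.28 for TNFRSF19. That fit had 1 library per group.

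**Figure D2:**
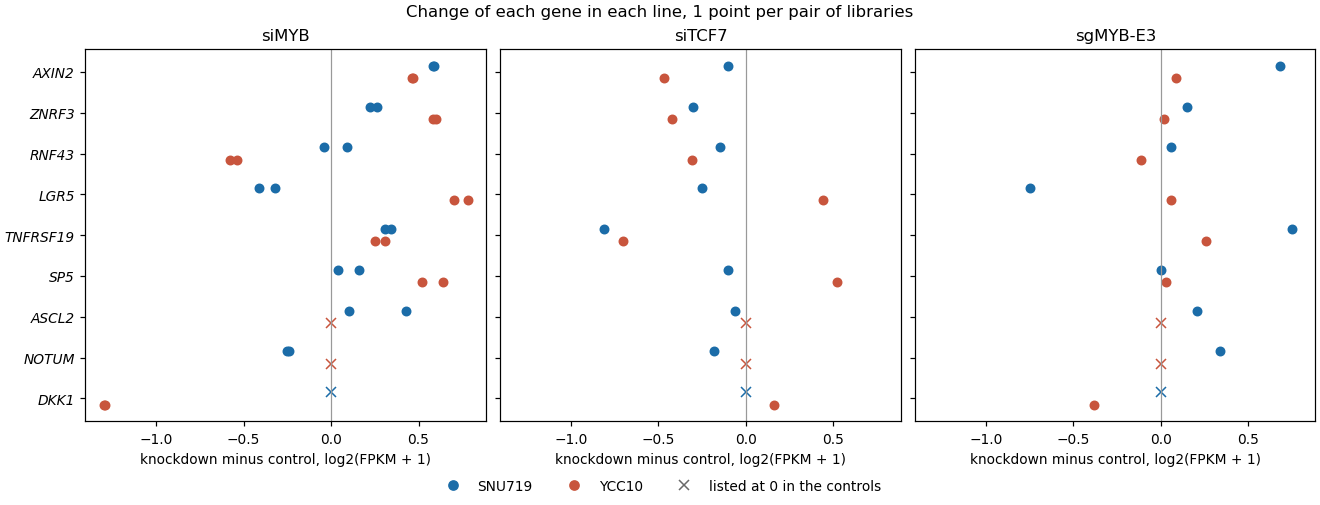
Knockdown minus control on the scale log2(FPKM + 1) (x axis) for each gene (y axis), SNU719 in blue and YCC10 in red; for siMYB each line has 2 points, the differences of the libraries numbered 1 and 2, and for siTCF7 and sgMYB-E3 it has 1. AXIN2, ZNRF3 and TNFRSF19 lie right of 0 for siMYB and left of 0 for siTCF7 in both lines; crosses mark genes listed at 0 in the controls.

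Among the intracellular feedback genes, AXIN2 in SNU719 stood at 44.8 and 47.3 FPKM with siCtrl and at 68.0 and 71.0 FPKM with siMYB (libraries numbered 1 and 2), a level 1.51 times control (log2 change 0.58, SE 0.0605, adjusted p = 0.00282, limma). In YCC10 it stood at 90.6 and 95.7 FPKM with siCtrl and at 125 and 133 FPKM with siMYB, 1.38 times control (0.46, SE 0.0605, adjusted p = 0.00252, limma). The groups did not overlap in either line, and the libraries numbered 1 and 2 gave 0.59 and 0.58 in SNU719 and 0.46 and 0.47 in YCC10. Both calls held in 15 of 15 alternatives. The effects of the lines did not differ by the test of the difference (YCC10 minus SNU719 -0.12, SE 0.0855, adjusted p = 0.368, limma); it passed in 1 of 15 alternatives, with a replicate block shared by all groups (-0.12, adjusted p = 0.0396; 0.0396 to 0.606). NKD1 stayed at 0.0168 FPKM or less with siMYB.

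Of the membrane genes, ZNRF3 rose in SNU719 from 13.4 and 13.6 FPKM to 16.2 and 15.95 FPKM (log2 change 0.24, SE 0.0506, adjusted p = 0.0232, limma). In YCC10 it rose from 8.52 and 9.02 FPKM to 13.5 and 14.0 FPKM, 1.57 times control (0.59, SE 0.0506, adjusted p = 6.77e-04, limma). All siMYB libraries lay above all siCtrl libraries of their line, and the rise was larger in YCC10 by 0.35 (SE 0.0715, adjusted p = 0.0244, limma). The SNU719 call was lost without any 1 of the 4 SNU719 libraries (0.23 to 0.25, adjusted p = 0.0820 to 0.104; 0.00740 to 0.104 over 15 alternatives), and the line difference without any 1 of 7 of the 8 libraries, all but the second YCC10 siCtrl (0.32 to 0.38, adjusted p = 0.0552 to 0.0884; 0.00741 to 0.0884).

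RNF43, which has the same known role as ZNRF3, did not move with it. In SNU719 it stood at 47.7 and 53.5 FPKM with siCtrl and at 51.0 and 51.9 FPKM with siMYB (0.03, SE 0.0909, adjusted p = 0.878, limma), the siMYB values lying between those of the controls. In YCC10 it fell from 31.1 and 35.2 FPKM to 21.0 and 23.2 FPKM, 66.8% of control (-0.56, SE 0.0909, adjusted p = 0.00515, limma). The difference between the lines was -0.59 (SE 0.129, adjusted p = 0.0304, limma) and was lost without any 1 of the 8 libraries (-0.67 to -0.50, adjusted p = 0.0506 to 0.0895; 0.00339 to 0.0895 over 15 alternatives). Exons of RNF43 overlap those of SUPT4H1 on the same strand (up to 29.0 FPKM) and of TSPOAP1-AS1 on the opposite strand (up to 3.26 FPKM). RNF43 also overlaps AC004687.2, and AXIN2 overlaps AC004805.1, both on the same strand and with no FPKM given. LGR5, NKD1 and MYB overlap opposite-strand genes with no FPKM given, and TCF7 overlaps SKP1 on the opposite strand (up to 111 FPKM). How reads in such overlaps were shared out is not given in the sources used here.

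As a result the ratio of RNF43 to ZNRF3 within a library shifted most with siMYB in YCC10. The ratio of their FPKM was 3.65 and 3.90 with siCtrl and 1.56 and 1.66 with siMYB in YCC10. In SNU719 it was 3.57 and 3.94 with siCtrl and 3.15 and 3.26 with siMYB. Both siMYB values lay below both siCtrl values in each line. The YCC10 sgCtrl library, at 2.48, lay below the other YCC10 controls.

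**Figure D3:**
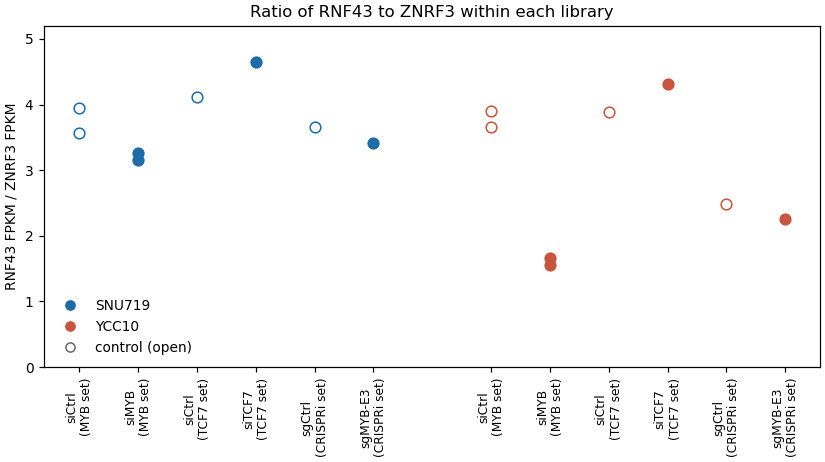
Ratio of RNF43 FPKM to ZNRF3 FPKM (y axis) in each of the 16 libraries, grouped on the x axis by line, set and agent; open circles are controls. The siMYB libraries of YCC10 lie lowest, at 1.56 and 1.66, and the siTCF7 libraries lie highest, at 4.65 in SNU719 and 4.31 in YCC10.

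LGR5 moved in opposite directions. In SNU719 it fell from 11.2 and 9.94 FPKM with siCtrl to 8.18 and 7.77 FPKM with siMYB, 75.6% of control (-0.36, SE 0.0857, adjusted p = 0.0326, limma). In YCC10 it rose from 14.9 and 14.0 FPKM to 26.3 and 23.3 FPKM, 1.72 times control (0.74, SE 0.0857, adjusted p = 0.00167, limma). The groups did not overlap in either line, and the effects differed by 1.10 (SE 0.121, adjusted p = 0.00475, limma), a difference that passed in 15 of 15 alternatives. The fall in SNU719 is the less certain of these values: it did not pass after median-of-ratios scaling or quantile normalization, nor without any 1 of the 4 SNU719 or the 2 YCC10 siCtrl libraries (-0.44 to -0.29, adjusted p = 0.0551 to 0.137), and its adjusted p ran from 0.00303 to 0.137 over 15 alternatives. TNFRSF19 rose in SNU719 from 2.24 and 2.34 FPKM to 3.11 and 3.15 FPKM (0.33, SE 0.0734, adjusted p = 0.0279, limma). In YCC10 it rose from 12.9 and 12.0 FPKM to 16.3 and 14.4 FPKM (0.28, SE 0.0734, adjusted p = 0.0279, limma). The groups did not overlap and the effects did not differ between lines by the test (-0.05, SE 0.104, adjusted p = 0.778, limma). The SNU719 call of TNFRSF19 was lost without any 1 of the SNU719 libraries (0.31 to 0.35, adjusted p = 0.0971 to 0.117; 0.0102 to 0.117 over 15 alternatives). The YCC10 call was lost without any 1 of 6 libraries (the first SNU719 siCtrl, both YCC10 siCtrl, both SNU719 siMYB and the first YCC10 siMYB; 0.20 to 0.33, adjusted p = 0.0510 to 0.129) and with no filter on low values (adjusted p = 0.0518; 0.00816 to 0.129 over 15 alternatives).

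Of the secreted inhibitors, DKK1 fell in YCC10 from 214 and 211 FPKM with siCtrl to 86.2 and 85.8 FPKM with siMYB (-1.30, SE 0.0430, adjusted p = 9.45e-05, limma). This was the largest change of the group on the log2 scale; it passed in 15 of 15 alternatives, and the libraries numbered 1 and 2 gave -1.30 and -1.29. DKK1 was listed at 0 in the SNU719 siCtrl and siMYB libraries, so the tested line difference of -1.30 (SE 0.0608, adjusted p = 8.35e-04, limma) compares a fall with a gene that was not seen. NOTUM in SNU719 stood at 7.79 and 9.16 FPKM with siCtrl and at 6.38 and 7.62 FPKM with siMYB (-0.24, SE 0.107, adjusted p = 0.160, limma). Both siMYB values of NOTUM were below both controls, and it passed in 1 of 15 alternatives, the fit with a replicate block (-0.24, adjusted p = 0.0378, limma, with 0.0378 to 0.498 over all 15). The spread in these fits includes YCC10, where NOTUM is listed at 0. Exons of DKK1 overlap PRKG1-AS1 on the opposite strand, which reached at most 1.06 FPKM.

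Of the transcription factors, SP5 in YCC10 rose from 11.8 and 12.6 FPKM to 17.4 and 20.2 FPKM, 1.54 times control (0.58, SE 0.0849, adjusted p = 0.00362, limma). In SNU719 it stood at 1.14 and 1.03 FPKM with siCtrl and at 1.20 and 1.26 FPKM with siMYB (0.10, SE 0.0849, adjusted p = 0.441, limma). The groups did not overlap in either line, but near 1 FPKM the log2(FPKM + 1) scale compresses changes. The line difference of 0.48 (SE 0.120, adjusted p = 0.0443, limma) passed in 5 of 15 alternatives (adjusted p 0.0228 to 0.139) and was lost without any 1 of 7 libraries, all but the first YCC10 siMYB (0.37 to 0.52, adjusted p = 0.0827 to 0.139). ASCL2 in SNU719 stood at 9.60 and 11.7 FPKM with siCtrl and at 13.3 and 12.6 FPKM with siMYB (0.27, SE 0.0960, adjusted p = 0.101, limma). The libraries numbered 1 gave 0.43 and those numbered 2 gave 0.10 for ASCL2. Without the second SNU719 siCtrl library it passed (0.40, adjusted p = 0.0489; 0.0489 to 0.300 over 15 alternatives).

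Among the 6 genes expressed in both lines, 4 had siMYB effects that differed between the lines (SP5, LGR5 and ZNRF3 higher in YCC10 than in SNU719, RNF43 lower), beside 19% of all genes, 8.65% higher and 10.3% lower. Of the genes called, higher ones made up 45.5%, and 55.0% after median-of-ratios scaling and 56.9% after quantile normalization, a split moved by scaling. Leaving out any 1 library kept LGR5 past the threshold each time and at most 1 of the other 3. MYB itself fell further in YCC10 than in SNU719 (line difference -1.26, SE 0.156, adjusted p = 0.00671, limma). Line and depth of knockdown thus cannot be told apart in these differences. For DKK1, ASCL2 (-0.27, adjusted p = 0.231, limma) and NOTUM (0.24, adjusted p = 0.318, limma), the line difference only restates the change in the line that expresses the gene. Markers of epithelial cells moved with siMYB too. Of 8 tested, 6 rose in SNU719 (all genes there: 8.04% higher and 14.6% lower). In YCC10 3 rose and 3 fell (all genes there: 15.3% higher and 26.5% lower). The summed FPKM of the 10 markers was 11800 to 12500 with siMYB in SNU719 and 5080 to 5240 in YCC10. Over the 4 controls of each line, from all 3 sets and not the MYB set alone, it was 7190 to 8130 in SNU719 and 4270 to 6630 in YCC10. The part of these markers in the changes of the WNT genes was not tested.

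**Figure D4:**
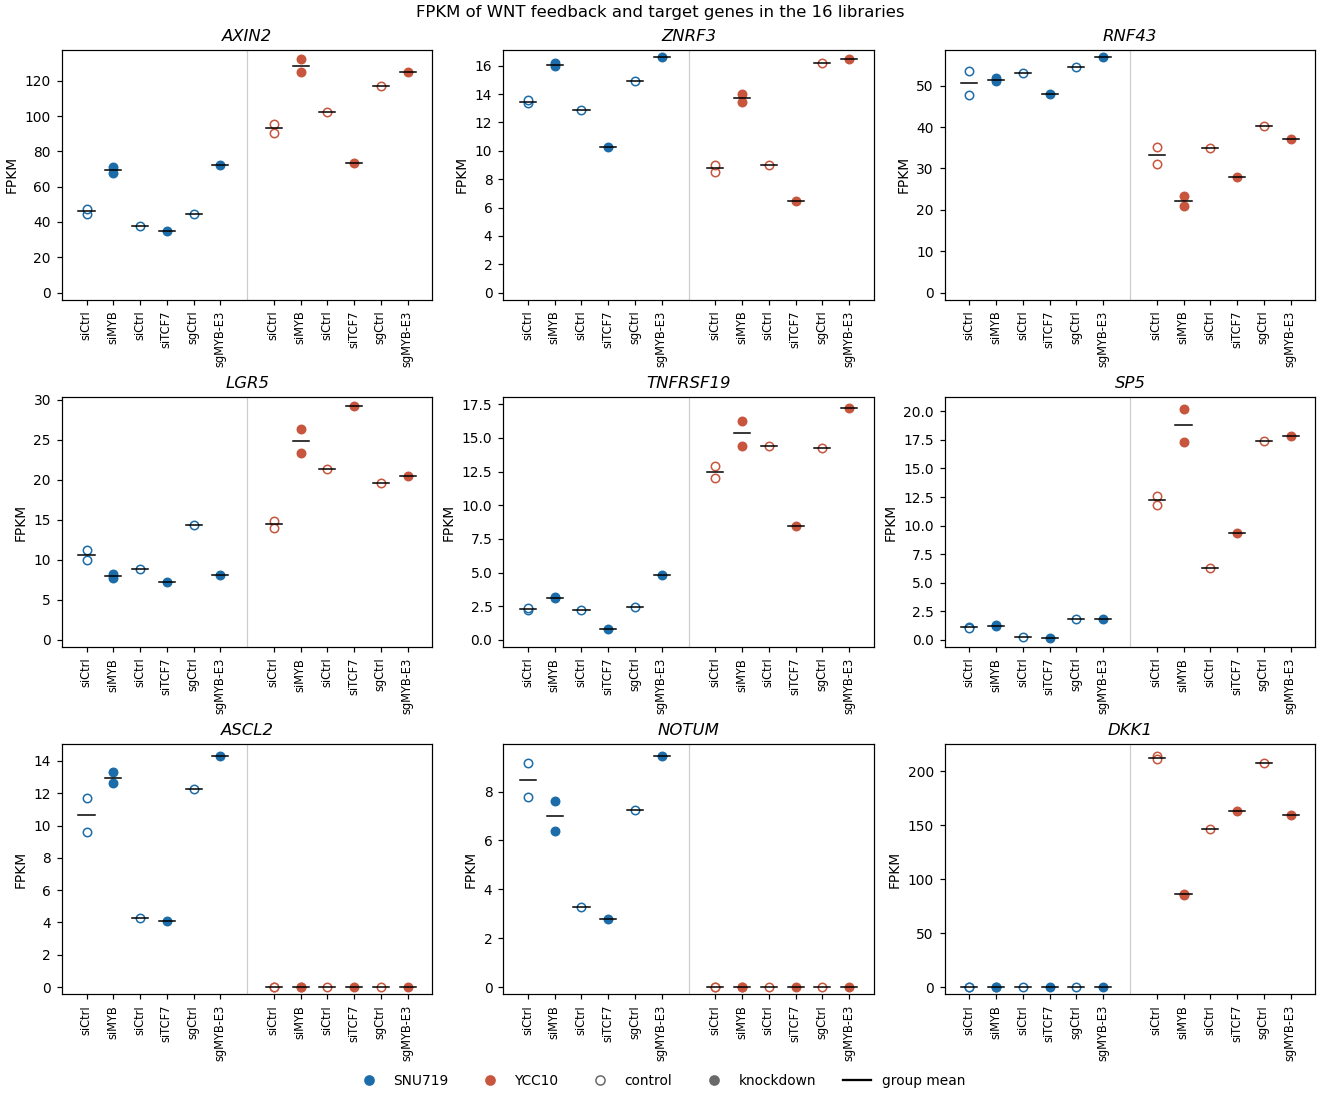
FPKM (y axis, from 0) of the 9 tested genes in each library, by agent on the x axis, SNU719 in blue and YCC10 in red; open circles are controls, filled circles knockdowns and bars group means. AXIN2 lies at 125 and 133 FPKM with siMYB in YCC10 against 90.6 and 95.7 with siCtrl, and DKK1 at 86.2 and 85.8 against 214 and 211.

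With siTCF7, TNFRSF19 and ZNRF3 fell over both lines and none of the other 7 tested genes passed. TCF7 binds DNA at WNT-responsive genes and recruits beta-catenin to them. MYB also fell with siTCF7 (-1.43, SE 0.264, adjusted p = 0.0113, limma), and its part in the values below was not tested. With 1 library per group and line, an effect shared by the lines was tested, and the fit assumes that these libraries vary like those of the MYB set. Its spread came from the MYB-set replicates and from differences between the lines in the siTCF7 and sgMYB-E3 effects. Of the 9 genes, 2 fell and 0 rose, beside 24.6% of 12290 genes called, 11.4% higher and 13.2% lower. The median log2 change was -0.09 for the 9 genes and 0.001 for all genes. That median is the value of NOTUM, which averages in YCC10, where it is listed at 0.

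TNFRSF19 stood at 2.22 FPKM with siCtrl and 0.832 FPKM with siTCF7 in SNU719, and at 14.4 and 8.45 FPKM in YCC10, or 37.6% and 58.8% of control (log2 change over both lines -0.76, SE 0.112, adjusted p = 0.00699, limma). ZNRF3 stood at 12.9 and 10.3 FPKM in SNU719 and at 8.99 and 6.49 FPKM in YCC10, or 79.7% and 72.1% of control (-0.36, SE 0.0578, adjusted p = 0.00848, limma). For both genes the siTCF7 library held the lowest value of its line among all 8 libraries. ZNRF3 lost its call without the YCC10 siCtrl or the YCC10 siTCF7 library of this set (-0.30, adjusted p = 0.0647 and 0.0649; 0.00499 to 0.155 over 24 alternatives), whereas TNFRSF19 passed without any 1 library and lost its call in the fit without the MYB-set libraries numbered 1 (-0.76, adjusted p = 0.155; 0.00613 to 0.155 over 24 alternatives).

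AXIN2 stood at 37.6 FPKM with siCtrl and 35.0 FPKM with siTCF7 in SNU719, and at 102 and 73.4 FPKM in YCC10 (-0.29, SE 0.137, adjusted p = 0.157, limma). RNF43 stood at 53.1 and 47.9 FPKM in SNU719 and at 34.9 and 28.0 FPKM in YCC10 (-0.23, SE 0.0926, adjusted p = 0.105, limma). Both genes were lower with siTCF7 in both lines without passing the test; RNF43 passed in 1 of 24 alternatives, a replicate block shared by all groups (-0.23, adjusted p = 0.0364; 0.0364 to 0.587). LGR5 stood at 8.83 and 7.26 FPKM in SNU719 and at 21.3 and 29.2 FPKM in YCC10 (0.09, SE 0.204, adjusted p = 0.772, limma), lower in one line and higher in the other. SP5 stood at 0.255 and 0.170 FPKM in SNU719 and at 6.26 and 9.38 FPKM in YCC10 (0.21, SE 0.134, adjusted p = 0.287, limma). Without either SNU719 library of this set the SP5 effect rests on YCC10 and passed (0.52, adjusted p = 0.0120; 0.0120 to 0.780 over 24 alternatives). ASCL2 stood at 4.29 and 4.07 FPKM and NOTUM at 3.26 and 2.76 FPKM in SNU719, and DKK1 at 146 and 163 FPKM in YCC10. Over both lines ASCL2 (-0.03, adjusted p = 0.854), NOTUM (-0.09, adjusted p = 0.628) and DKK1 (0.10, adjusted p = 0.409, limma) did not pass. Each of these values averages in a line at or next to 0, and no test was made within a line. NKD1 stayed at 0.0168 FPKM or less with siTCF7 and with sgMYB-E3. A difference between lines in the siTCF7 effect was not tested.

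With sgMYB-E3, which left more MYB RNA than siMYB did, 0 of the 9 genes passed, beside 0.0325% of all genes (4 of 12290, 0.00814% higher and 0.0244% lower). MYB itself did not pass in this fit either (-1.03, SE 0.264, adjusted p = 0.981, limma). A missing call here therefore does not show that a gene was unchanged. At an unadjusted p under 0.05 in the same limma fit, 2 of the 9 genes and 461 of 12290 genes (3.75%) passed. The share over all genes is no higher than chance alone gives at this threshold. The 2 were TNFRSF19 (0.50, SE 0.112, unadjusted p = 0.00205, adjusted p = 0.681) and AXIN2 (0.39, SE 0.137, unadjusted p = 0.0223, adjusted p = 1.00).

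AXIN2 stood at 44.6 FPKM with sgCtrl and 72.0 FPKM with sgMYB-E3 in SNU719, 1.62 times control, and at 117 and 125 FPKM in YCC10, 1.07 times control. TNFRSF19 stood at 2.47 and 4.82 FPKM in SNU719 and at 14.2 and 17.2 FPKM in YCC10, 1.96 and 1.21 times control. LGR5 stood at 14.4 and 8.14 FPKM in SNU719, 56.6% of control, and at 19.6 and 20.5 FPKM in YCC10. These 3 genes were further from control in SNU719 than in YCC10, and so was ZNRF3 (log2 change 0.15 against 0.02). For ZNRF3 the YCC10 value rests on an sgCtrl library at 16.2 FPKM, against 8.52 to 9.02 FPKM in the YCC10 siCtrl libraries. MYB stood at 38.5% of control with this guide in SNU719 and 58.4% in YCC10. RNF43 was further from control in YCC10. DKK1 is listed at 0 in the SNU719 libraries of this set, so a change of it could be seen in YCC10 alone. Differences between the lines in the sgMYB-E3 effect were not tested. DKK1 in YCC10 stood at 208 FPKM with sgCtrl and 159 FPKM with sgMYB-E3, 76.8% of control. ZNRF3 stood at 14.9 and 16.6 FPKM in SNU719 and at 16.2 and 16.5 FPKM in YCC10. RNF43 stood at 104% of control in SNU719 and 92.5% in YCC10, SP5 at 99.9% and 102%, and ASCL2 (12.3 and 14.3 FPKM) and NOTUM (7.26 and 9.46 FPKM) were higher with the guide in SNU719.

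The tests of the differences between knockdowns separated siTCF7 from siMYB. The sets have separate controls. Here and for sgMYB-E3 below, the values of DKK1, ASCL2 and NOTUM average in the line that lists them at or next to 0. The siTCF7 effect was below the mean siMYB effect for TNFRSF19 (-1.06, SE 0.137, adjusted p = 0.00423), AXIN2 (-0.81, SE 0.168, adjusted p = 0.0209) and ZNRF3 (-0.77, SE 0.0708, adjusted p = 0.00129), and above it for DKK1 (0.75, SE 0.102, adjusted p = 0.00474; limma). That is 4 of 9 genes, beside 13.2% of all genes, 9.10% higher and 4.07% lower; higher genes were 69.1% of those called, 51.3% after median-of-ratios scaling and 54.1% after quantile normalization. AXIN2 lost this call when the YCC10 siCtrl or siTCF7 library of the TCF7 set was left out (-0.62, adjusted p = 0.114; 0.0121 to 0.302 over 24 alternatives). DKK1 is listed at 0 in the SNU719 siCtrl and siMYB libraries, so its 0.75 averages a line in which it was not seen; in YCC10 its change was 0.16 with siTCF7 and -1.30 with siMYB. The difference did not pass for LGR5 (-0.10), RNF43 (0.04), SP5 (-0.13), ASCL2 (-0.16) or NOTUM (0.03), with adjusted p from 0.401 to 0.911 (limma), and NKD1 was not tested.

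Between sgMYB-E3 and siMYB, 2 of 9 genes differed: ZNRF3 (-0.33, SE 0.0708, adjusted p = 0.0278) and DKK1 (0.46, SE 0.102, adjusted p = 0.0315; limma), beside 9.25% of all genes, 6.38% higher and 2.87% lower. Higher genes were 69.0% of those called, 45.5% after median-of-ratios scaling and 48.3% after quantile normalization. For both genes the siMYB effect was the further from 0. For DKK1 the value again averages in SNU719, and its change in YCC10 was -0.38 with sgMYB-E3. For ZNRF3 it draws on the YCC10 sgCtrl library, which at 16.2 FPKM lay far above the YCC10 siCtrl libraries. Both calls were weak: DKK1 passed in 9 and ZNRF3 in 13 of 24 alternatives (adjusted p 0.0235 to 0.372 and 0.0127 to 0.355), and DKK1 was lost with a replicate block (0.46, adjusted p = 0.0561). Leaving out 1 library ended the DKK1 call for any MYB-set library and either SNU719 library of the CRISPRi set (0.27 to 0.46, adjusted p up to 0.151). It ended the ZNRF3 call for any library of the CRISPRi set and for 6 of the 8 MYB-set libraries, all but the second YCC10 siCtrl and the first YCC10 siMYB (-0.39 to -0.27, adjusted p up to 0.214). For AXIN2 (-0.14, SE 0.168, adjusted p = 0.648) and TNFRSF19 (0.20, SE 0.137, adjusted p = 0.382) the difference between the MYB knockdowns did not pass, nor did it for LGR5 (-0.53), SP5 (-0.32), NOTUM (0.29), RNF43 (0.24) or ASCL2 (-0.03), with adjusted p from 0.213 to 0.904 (limma).

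Genes whose pattern was most like that of AXIN2 were ranked by Pearson's r over the 8 knockdown libraries, each as log2(FPKM + 1) minus the mean of its controls, among 12289 other genes; libraries of a set and line share controls, so r is a description. The highest were LMLN (0.967), SLX4IP (0.951), LTO1 (0.948), SIK2 (0.940) and SLC7A5 (0.935). A high r means that libraries rank alike, and not that a gene rose where AXIN2 rose. SLC7A5 was below control in all 8 libraries, at -0.54 and -0.58 with siMYB in SNU719 and -0.68 and -0.51 in YCC10. SIK2 stood at -0.04 in both YCC10 siMYB libraries. TNFRSF19 came at rank 67 (0.882) and ZNRF3 at rank 314 (0.797), the closest of the WNT genes. ASCL2 (0.664), RNF43 (0.225) and NOTUM (0.113) followed, and SP5 (-0.104), DKK1 (-0.298) and LGR5 (-0.320) were negative. ASCL2 and NOTUM are listed at 0 in YCC10, and DKK1 at or next to 0 in SNU719. For these genes r also reflects which line expresses them.

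The rest of the pathway was read from 6 lists. The counts below stand against all genes tested, of which 8.76% were higher and 20.7% lower with siMYB over both lines, and 11.4% higher and 13.2% lower with siTCF7. Of 21 WNT ligand and secretion genes, 4 could be tested: 0 passed with siMYB over both lines, and with siTCF7 1 rose, the WNT transporter WLS (0.44, SE 0.0998, adjusted p = 0.0186, limma). Of 11 tested receptors, co-receptors and R-spondins (median -0.17 with siMYB), 2 fell with siMYB, the WNT receptor RYK (-0.58, SE 0.0689, adjusted p = 0.00256) and the R-spondin receptor LGR4 (-0.38, SE 0.0766, adjusted p = 0.0126). With siTCF7 1 rose, FZD5 (0.52, SE 0.0692, adjusted p = 0.00534, limma). LGR4 had a mean of 20.8 FPKM with siCtrl and 15.8 FPKM with siMYB in SNU719, and of 31.2 and 23.6 FPKM in YCC10, so its direction was the same in both lines, unlike that of LGR5.

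Of 15 tested Dishevelled and destruction complex genes, 1 rose with siMYB, CTNNB1, which encodes beta-catenin (0.41, SE 0.0625, adjusted p = 0.00552, limma), with means of 252 and 365 FPKM (siCtrl and siMYB) in SNU719 and 161 and 196 FPKM in YCC10. With siTCF7, CSNK1D rose (0.33) and CSNK1A1, a kinase that primes beta-catenin for degradation, fell (-0.58, SE 0.131, adjusted p = 0.0182, limma). Of 4 other WNT antagonists tested, DKK4 rose with siMYB (0.67, SE 0.0926, adjusted p = 0.00402, limma), with means of 32.3 and 47.3 FPKM in SNU719 and 0.965 and 2.44 FPKM in YCC10. DKK4, a relative of DKK1, was thus higher with siMYB in YCC10, where DKK1 fell.

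Of 11 tested TCF/LEF factors and nuclear partners, 2 rose and 3 fell with siMYB, beside 29.4% of all genes called: BCL9L (0.65) and TCF7L2 (0.34) rose, and TLE1 (-0.52), HHEX (-0.35) and BCL9 (-0.27) fell. TLE1 and HHEX are known as repressors. With siTCF7 (24.6% of all genes called) 4 rose, PYGO2 (0.59), TCF7L2 (0.41) and CTNNBIP1 (0.41) among them, and TCF7 fell (-1.92). Of 19 other genes described as WNT targets, 6 rose and 4 fell with siMYB, beside 8.76% of all genes higher and 20.7% lower. Within a line the counts for these targets were 9 higher and 5 lower in SNU719 (all genes: 8.04% and 14.6%) and 5 higher and 6 lower in YCC10 (all genes: 15.3% and 26.5%). Their median change over both lines was 0.11, beside -0.071 over all genes and 0.19 for the 9 WNT feedback and target genes. The protease MMP7 (1.94, SE 0.186, adjusted p = 0.00161), BMP4 (1.59) and FGF20 (1.18) rose most, and LRIG1 (-0.67), TDGF1 (-0.64) and EPHB3 (-0.62) fell most. With siTCF7 4 rose and 2 fell, beside 11.4% and 13.2% of all genes, among them MMP7 (1.58), CLDN1 (1.46) and BMP4 (0.62) higher and TDGF1 (-0.68) and LRIG1 (-0.53) lower. MMP7 in YCC10 went from 87.3 to 444 FPKM with siMYB and from 120 to 722 FPKM with siTCF7, whereas AXIN2 rose with siMYB and did not pass with siTCF7. With sgMYB-E3, 0 genes of any of the 6 lists passed.

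In the control libraries the lines also differed in pathway genes outside the group. WNT5B (4.18 FPKM in SNU719, 0.0300 in YCC10) and FZD1 (3.50 and 0.00221 FPKM) were lower in YCC10, WNT3 (listed at 0 in SNU719, 2.80 FPKM in YCC10) and FZD4 (0.136 and 4.70 FPKM) were higher. Among inhibitors DKK4 (32.5 and 1.10 FPKM) and TRABD2A, a protease that cleaves WNT ligands (101 and 10.8 FPKM), were lower in YCC10, opposite to DKK1. Of the nuclear partners HHEX (1.12 and 14.4 FPKM) and TLE2 (0.731 and 7.78 FPKM) were higher in YCC10, and of the other targets MMP7 was higher (4.26 and 85.0 FPKM) and TDGF1 lower (19.2 and 1.498 FPKM). CTNNB1 (262 and 164 FPKM) and APC (3.68 and 1.41 FPKM) were lower in YCC10, where AXIN2, SP5 and TNFRSF19 were higher.

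**Figure D5:**
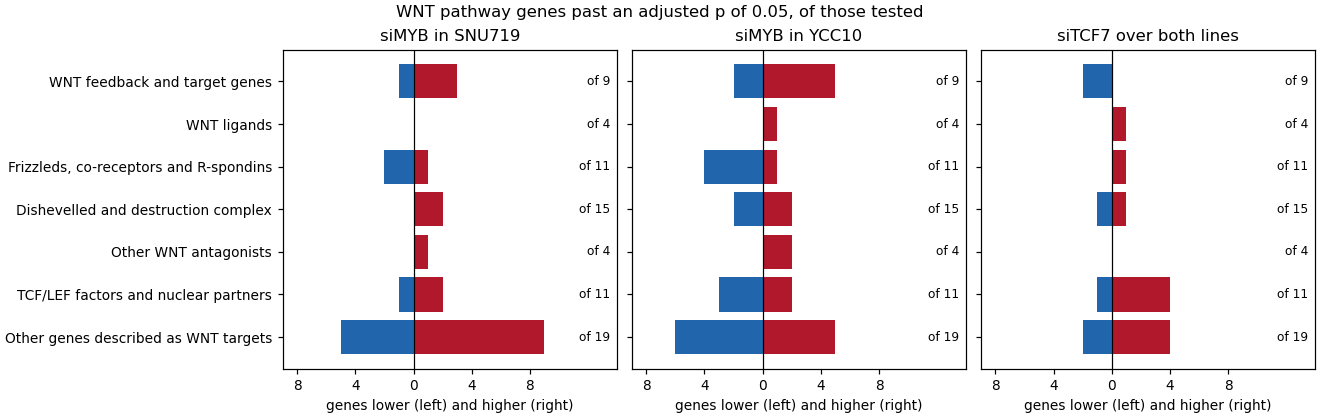
Number of genes past an adjusted p of 0.05 (x axis, lower to the left in blue and higher to the right in red) in the 9 tested WNT feedback and target genes and 6 further lists (y axis), with the number tested at the right. With siMYB in YCC10, 5 of the 9 rose and 2 fell; with siTCF7 over both lines, 2 fell and 0 rose.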

How the data were processed

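RNA-seq of SNU719 and YCC10 was deposited by the authors as 1 table of FPKM with 33648 rows and 16 libraries. Per the labels' protocols, libraries were made with the TruSeq Stranded mRNA kit from total RNA. The submitters' processing notes name bcl2fastq 2.20.0, HISAT2 2.1.0, Cufflinks 2.2.1 and hg38; for settings, annotation and use of strand, the sources used here give nothing. FPKM carries no counts, so depth is unknown and no count model was run.

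Rows of 1 symbol were summed. limma 3.58.1 (R 4.3.3, eBayes with trend) was fitted to log2(FPKM + 1) for all genes whose mean reached 1 FPKM, with Benjamini-Hochberg adjustment over all of them and a threshold of 0.05. The MYB set was fitted by group (4 residual degrees of freedom) and with line as covariate (5). siTCF7, sgMYB-E3 and their differences from siMYB came from all 16 libraries with a term per line and set (6), and the lines were compared in controls with set as covariate (4). Errors are limma standard errors. Steps were tested on simulated data.

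Replicate differences correlated between the MYB-set groups (r = 0.342 and 0.438 within a line, 0.326 to 0.411 across lines). The reported fits had no replicate block. Blocks by replicate number were run as alternatives, chosen from these correlations and not from the labels. A blocked value is given where it changed a call. Alternatives were another choice of row, a pseudocount of 0.1, no filter, other scalings, replicate blocks and leaving out each library.

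All 10 genes are named in every comparison, NKD1 as not tested. In the pathway lists, named genes are up to 3 that rose and 3 that fell most over both lines, and up to 2 with the largest difference between lines. Genes and lists were chosen with earlier results of these data known. Positions are from GENCODE release 29 on GRCh38.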

Additional observations from a re-analysis of the deposited data

Results flagged for a closer look

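Among the 15 groups of 4 control libraries in which a WNT feedback or target gene reached 1 FPKM, 2 held a library far from the other 3. ZNRF3 in YCC10 was 16.2 FPKM with sgCtrl and 8.52 to 9.02 FPKM in the siCtrl libraries, and the gap was 0.934 of the whole range. DKK1 in YCC10 was 146 FPKM in the siCtrl library of the TCF7 set and 208 to 214 FPKM in the others, with a gap of 0.902 of the range. Both gaps are past the 95% critical value of Dixon's test for 4 values, which chance alone passes in about 1 in 20 groups.

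The effect of siMYB differed between the lines, by the interaction test in limma, for 5 of the 9 tested genes. Of all 12095 genes 19% were called, 8.65% higher and 10.3% lower. DKK1 is among the 5, and its difference only restates its change in YCC10. On the log2(FPKM + 1) scale the effect in YCC10 minus that in SNU719 was -1.30 for DKK1, which is listed at 0 in SNU719, and 1.10 for LGR5, which fell in SNU719 and rose in YCC10. It was -0.59 for RNF43, 0.48 for SP5 and 0.35 for ZNRF3. These 3 smaller differences did not pass in most fits with 1 library left out. The fall of MYB itself was also larger in YCC10 (-1.26), so line and depth of knockdown cannot be told apart.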

How the results depend on the processing

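Over all comparisons, 1548 values of the 9 genes under alternatives were compared with their reported values: 1406 kept direction and call, 96 lost a call, 9 gained one, 37 changed sign with no call either way and 0 called values changed sign. Calls of AXIN2, LGR5, ZNRF3, SP5, RNF43 and DKK1 with siMYB in YCC10 held in 15 of 15 alternatives, and so did AXIN2 in SNU719. The replicate block within a line was chosen because replicate differences correlated. It moved the genes called with siMYB from 2737 to 4856 in SNU719 and from 2297 to 4352 for the line difference. Of the 9 genes it changed 3 calls and no other. NOTUM gained with siMYB in SNU719, DKK1 lost for sgMYB-E3 minus siMYB, and ZNRF3 lost between lines. With 1 block shared by all groups, genes called were 5269 in SNU719, 4750 for the line difference, 2549 for siTCF7 minus siMYB and 2087 for sgMYB-E3 minus siMYB; this block was not run for controls. For sgMYB-E3 minus siMYB, 1 of the 9 genes passed with a pseudocount of 0.1, with either scaling and with the block, and with no filter on low values sgMYB-E3 called 8 genes.

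Without the MYB-set libraries numbered 1 (chosen after seeing the data, and not possible for siMYB within a line), 0 of the 9 genes passed for siMYB over both lines, siTCF7, siTCF7 minus siMYB or sgMYB-E3 minus siMYB, and 8, 3, 25 and 22 of all genes did; fewer samples leave such fits few degrees of freedom. Leaving out 1 library at a time gave 1113 to 2323 genes and 1 to 4 of the 9 for siMYB in SNU719, 972 to 1418 and 2 to 3 for the line difference, 1983 to 3065 genes for siMYB over both lines, 630 to 4307 and 1 to 3 for siTCF7, 3 to 40 genes for sgMYB-E3, 982 to 3248 genes for siTCF7 minus siMYB, and 150 to 2475 and 0 to 2 for sgMYB-E3 minus siMYB. The counts moved by over 1.5 times without any of the 4 SNU719 libraries (siMYB in SNU719), any of the 8 MYB-set libraries (line difference), the 2 YCC10 siCtrl libraries or the first YCC10 siMYB (siMYB over both lines), the YCC10 siCtrl or siTCF7 library of the TCF7 set (siTCF7, 630), any library of the TCF7 or CRISPRi set (sgMYB-E3), any MYB-set library but the second YCC10 siMYB or any TCF7-set library (siTCF7 minus siMYB), and any library but the first YCC10 siMYB (sgMYB-E3 minus siMYB). The cause was not tested. FPKM without counts gives no interval for values near 0, such as NKD1.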

Other observations

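Several of the genes differed between control libraries of 1 line. In SNU719, ASCL2 was 4.29 FPKM in the siCtrl library of the TCF7 set and 9.60, 11.7 and 12.3 FPKM in the other controls. NOTUM was 3.26 FPKM there and 7.26 to 9.16 FPKM in the others. SP5 was lowest in the same set in both lines, at 0.255 FPKM against 1.03 to 1.85 FPKM in SNU719 and at 6.26 FPKM against 11.8 to 17.4 FPKM in YCC10. The siTCF7 libraries lay near their own controls for ASCL2 (4.07 FPKM) and NOTUM (2.76 FPKM), so the level of these genes went with the set more than with the agent. With 1 control library per line in this set, set and culture cannot be told apart.

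The ratio of RNF43 to ZNRF3 in the siTCF7 libraries was 4.65 in SNU719 and 4.31 in YCC10, above the 4.12 and 3.89 of their own controls, and in the sgMYB-E3 libraries it was 3.42 and 2.26, below the 3.65 and 2.48 of theirs. It was thus lower than control with siMYB and with sgMYB-E3, and higher with siTCF7, which also lowered MYB, in both lines. For siTCF7 and sgMYB-E3 each ratio is from a single library and was not tested. The shifts with sgMYB-E3 were smaller than the gaps between siCtrl libraries of the MYB set (3.57 and 3.94 in SNU719, 3.65 and 3.90 in YCC10).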
